A study of Mus musculus with 9 samples.

Results

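The MHC class I pathway and the immunoproteasome were followed through 10 genes in whole distal small intestine of mice: H2-K1, H2-D1, H2-T23, B2m, Tap1, Tap2, Tapbp, Psmb8, Psmb9 and Psmb10. The members were the probe sets that the platform annotation assigns to exactly 1 of these symbols. In all, 26 of 45037 non-control probe sets met this rule, and 9 of the 10 genes had at least 1. H2-T23 had none, because its 2 probe sets also carry another symbol, and no value is given for it. Of the 26 probe sets, 18 passed the filter on low intensity and were tested, against 27022 of all probe sets, and all 9 measured genes kept at least 1. Where a gene had several tested probe sets, the brightest over all arrays stands for it, and the others are set beside it.

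There were 9 Affymetrix arrays in 3 groups of 3, named Rag1, BP and B6 in the titles. All mice had been colonized for 10 days with the gut bacterium Bacteroides thetaiotaomicron. The Rag1 and BP arrays carry the same source label, distal small intestine of Rag 1 mice, and the B6 arrays are labelled wild type. The Rag1 protein cuts DNA so that lymphocyte antigen receptor genes can be joined, and mice without it lack B and T cells. The labels do not spell out BP, and they give no Rag1 allele, age, sex or batch. Segments 10, 11, 12 and 14 of 16 equal segments were pooled for each RNA sample, which therefore holds epithelium, immune cells and muscle together. The series title names the effect of IgA, the antibody of mucosal surfaces, as the question. The labels do not say whether the arrays are of separate mice, so a p-value reflects only how much these samples varied.

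MHC class I molecules show peptides from inside the cell to CD8 T cells and natural killer cells. Proteasomes cut proteins into peptides, the transporter made of Tap1 and Tap2 moves these into the endoplasmic reticulum, Tapbp (tapasin) helps to load them, and the heavy chain leaves for the surface with B2m, the beta-2-microglobulin light chain. Interferon raises the whole pathway, and it brings in the catalytic subunits Psmb8, Psmb9 and Psmb10, which take the places of Psmb5, Psmb6 and Psmb7 and turn the standard proteasome into the immunoproteasome. In the intestine, class I is found on the epithelium as well as on immune cells.

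The 250 bases before the start of each gene were read from RefSeq sequence of build GRCm38.p6, where 9 of the 10 members had an entry and Tap2 had none. Those of the class I chains are printed because H2-K1 and H2-D1 are near copies whose values are set side by side below, and the stretch between Tap1 and Psmb9 because it precedes both genes that rose from Rag1 to B6. Capitals mark matches, on either strand, to the interferon-stimulated elements GAANNGAAA and GAAANNGAA and to the core of the kappaB element, GGGATTCCC. H2-K1 lies on the minus strand (chr17:34000348-34000597), H2-D1 on the plus strand (chr17:35262844-35263093) and B2m on the plus strand (chr2:122147437-122147686). Tap1 and Psmb9 start back to back, and the 225 bases between their starts (chr17:34187331-34187555) are given in the direction of Tap1.
H2-K1: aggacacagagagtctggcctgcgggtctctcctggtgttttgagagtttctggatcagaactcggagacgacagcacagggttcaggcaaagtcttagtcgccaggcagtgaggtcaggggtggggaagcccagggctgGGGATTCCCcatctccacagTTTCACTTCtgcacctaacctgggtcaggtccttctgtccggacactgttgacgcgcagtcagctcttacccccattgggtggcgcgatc
H2-D1: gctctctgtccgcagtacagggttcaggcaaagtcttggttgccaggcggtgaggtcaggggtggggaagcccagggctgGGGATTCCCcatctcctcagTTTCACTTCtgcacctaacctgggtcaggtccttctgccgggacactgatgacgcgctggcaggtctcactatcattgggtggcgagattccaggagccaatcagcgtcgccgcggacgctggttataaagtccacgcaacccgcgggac
B2m: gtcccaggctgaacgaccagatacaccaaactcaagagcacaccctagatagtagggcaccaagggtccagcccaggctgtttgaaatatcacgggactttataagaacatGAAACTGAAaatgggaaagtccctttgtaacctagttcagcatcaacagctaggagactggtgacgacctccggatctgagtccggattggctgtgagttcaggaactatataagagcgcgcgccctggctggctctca
Tap1 and Psmb9: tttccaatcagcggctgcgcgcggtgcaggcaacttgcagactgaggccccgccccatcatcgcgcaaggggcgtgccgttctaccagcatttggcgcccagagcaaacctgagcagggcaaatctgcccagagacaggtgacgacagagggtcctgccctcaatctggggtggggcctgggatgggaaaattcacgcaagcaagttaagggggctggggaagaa
The kappaB element stood in the windows of H2-K1 and H2-D1 and in 0.301% of all 32851 promoter windows of the same length, and it did not overlap the interferon element that follows it. The element GAANNGAAA, found in 6.31% of all windows, was held by H2-K1 and H2-D1, and GAAANNGAA, found in 7.13%, by H2-T23 and B2m. Laid side by side without gaps, the H2-K1 and H2-D1 windows agreed at 166 of 190 bases, with a longest shared run of 47. None of these motifs was found in the stretch between Tap1 and Psmb9. The gamma-activated site TTCNNNGAA, in 7.02% of all windows, was found in 1 member's window, that of Psmb8. A match is a run of letters in this window and nothing was measured on it here.

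Lymphocyte transcripts separated B6 from the other groups. In deposited intensity, the IgA heavy chain gene Igha ranged from 83.4 to 93.4 in Rag1, from 54.5 to 111 in BP and from 2583 to 6389 in B6. The T cell gene Cd3e ranged from 21.3 to 27.3, from 16.2 to 44.6 and from 112 to 154. Rag1 itself was dim everywhere, at 1.37 to 2.69, 2.87 to 22.8 and 3.54 to 17.6. The actin control's 3-prime to 5-prime signal ratio, a measure of RNA length that is higher for shortened RNA, was 1.53 to 1.77 on the Rag1 arrays, 3.25, 1.76 and 4.17 on B6 replicates 1, 2 and 3, and 14.2, 2.43 and 20.2 on BP replicates 1, 2 and 3. Every BP ratio lay above every Rag1 ratio. A fit with the ratio as a covariate therefore cannot separate RNA quality from the difference between BP and Rag1, and its values below are descriptions. The brightest probe set of Xist, a transcript of female cells, read at most 24.1 in Rag1, 36.0, 624 and 1735 in BP replicates 1, 2 and 3, and at least 1086 in B6, so sex and group cannot be told apart between B6 and Rag1. The typical (median) SD of a probe set was 0.21 in Rag1, 0.44 in BP and 0.23 in B6 in log2 units.

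The 9 genes all had the same order of group means, with BP lowest, Rag1 between and B6 highest. Values below are deposited intensities, and changes are on the log2(value + 16) scale after quantile normalization, with the standard error (SE) and an adjusted p from limma over all 27022 probe sets (Benjamini-Hochberg, threshold 0.05, n = 3 per group). All 9 changes from Rag1 to B6 were positive and all 9 from Rag1 to BP were negative, also after median centring and in the values as deposited. Most of these changes did not pass the test.

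**Figure D1:**
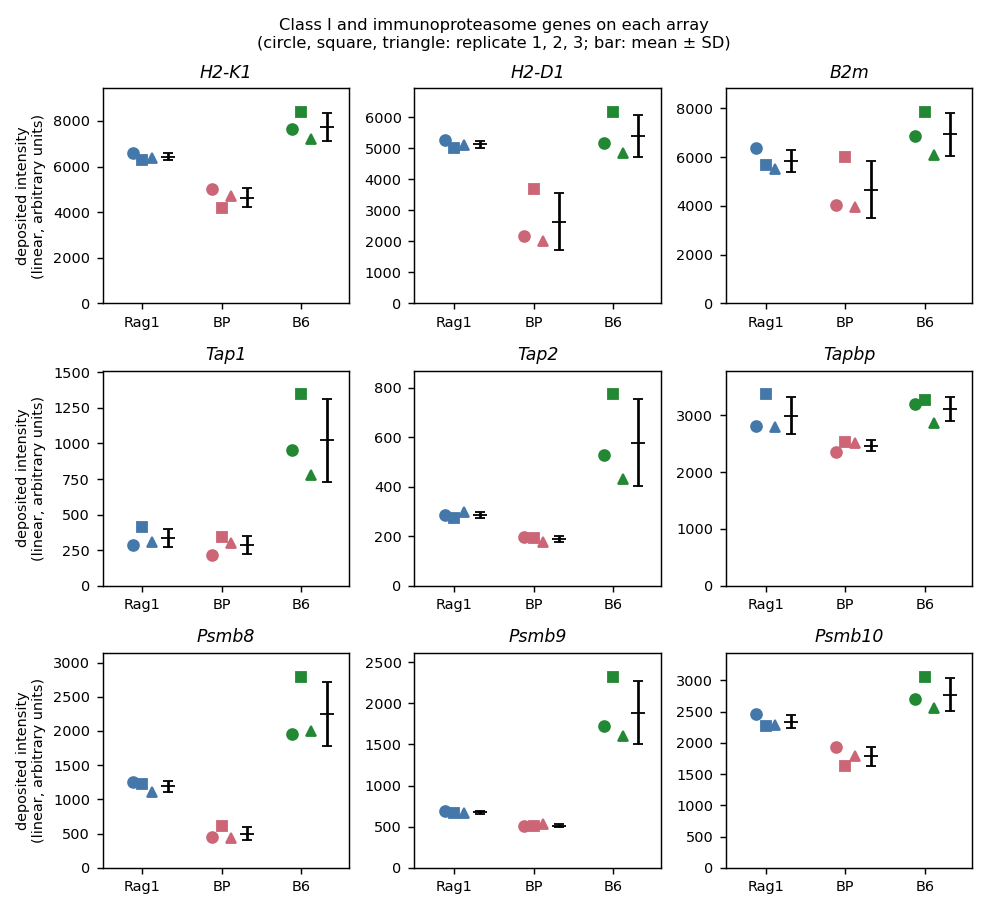
Deposited intensity (vertical axis, linear, from 0) of the brightest probe set of each of the 9 genes on the 3 Rag1, 3 BP and 3 B6 arrays. Circles, squares and triangles are replicates 1, 2 and 3 and bars give the mean ± SD. The B6 arrays lie above the BP arrays in all 9 panels, and B6 replicate 2 is the highest B6 array in each.

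Between B6 and Rag1, 2 of the 9 genes rose, the peptide transporter chain Tap1 (3.04-fold) and the immunoproteasome subunit Psmb9 (2.73-fold), and none fell. Over all genes with a tested probe set, 0.317% were called higher and 0.0737% lower. The median change of the 9 genes was 0.33, with a range of 0.08 to 1.60, against a median of 0.02 over all 13570 genes. The deposited intensities of B6 and Rag1 did not overlap for 6 of the 9 genes, namely H2-K1, Tap1, Tap2, Psmb8, Psmb9 and Psmb10, all higher in B6, where 6.09% of all genes stood apart in that direction. T cell and cytotoxic cell markers moved with this comparison, and in whole tissue more cells of a type and more RNA per cell cannot be told apart.

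From Rag1 to BP, 2 of the 9 genes fell, the immunoproteasome subunit Psmb8 (2.30-fold lower) and the class I heavy chain H2-D1 (1.87-fold lower), and none rose. Calls of lower genes made up 2.17% of all genes and calls of higher genes 1.1%. The median change of the 9 genes was -0.34, against -0.02 over all genes. The deposited intensities of BP lay below those of Rag1 without overlap for 7 of the 9 genes, all but B2m and Tap1, where 14.8% of all genes did. In the whole series 298 probe sets were called higher and 729 lower here, a split that was 158 and 1054 after median centring and 130 and 641 in the values as deposited.

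The B6 against BP comparison had the largest differences, with 5 of the 9 genes higher in B6: Psmb8 (4.22-fold), Psmb9 (3.44-fold), Tap1 (3.29-fold), Tap2 (2.77-fold) and H2-D1 (1.97-fold). Over all genes 0.545% were called higher in B6 and 0.0368% lower. All 9 genes had B6 intensities above every BP intensity, where 10.2% of all genes did. The median change was 0.98, against 0.04 over all genes. This comparison shares its arrays with the ones before it and adds no independent samples.

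**Figure D2:**
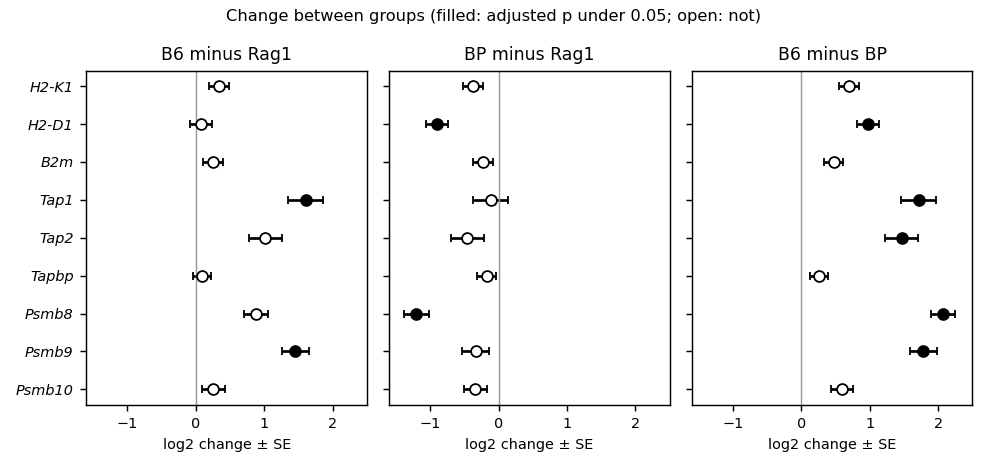
Log2 change (horizontal axis) of each of the 9 genes (vertical axis) in the 3 comparisons, with SE bars, n = 3 arrays per group. Filled points passed an adjusted p of 0.05 and open points did not. Filled points are Tap1 and Psmb9 on the left, H2-D1 and Psmb8 in the middle, and H2-D1, Tap1, Tap2, Psmb8 and Psmb9 on the right.

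Among the chains of the class I molecule, H2-K1 encodes a classical heavy chain that presents peptides to CD8 T cells. It read 6602, 6307 and 6376 on Rag1 replicates 1, 2 and 3, 5013, 4174 and 4714 on BP, and 7625, 8374 and 7201 on B6. The 3 groups did not overlap. The change was 0.33 ± 0.15 from Rag1 to B6 (adjusted p = 0.869), -0.37 ± 0.15 from Rag1 to BP (adjusted p = 0.183) and 0.70 ± 0.15 from BP to B6 (adjusted p = 0.0608), so none passed on this probe set. The last passed after median centring (adjusted p = 0.0287) and in the values as deposited (0.0179). With BP replicate 2 alone for BP the change from Rag1 was -0.65. Dimmer H2-K1 probe sets did pass from BP to B6, at 0.93 (adjusted p = 0.00998) and 0.95 (0.0296). The dimmest did not (0.71, adjusted p = 0.201). Those calls were not followed under alternatives.

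H2-D1, the other classical heavy chain measured, read 5251, 5011 and 5114 on the Rag1 arrays, 2188, 3687 and 2018 on BP, and 5169, 6154 and 4837 on B6. Rag1 and B6 overlapped, and BP was below both, with BP replicate 2 nearest to them. The fall from Rag1 to BP was -0.90 ± 0.16 (adjusted p = 0.0183), whereas B6 and Rag1 differed by 0.08 ± 0.16 (adjusted p = 0.999). From BP to B6 it rose by 0.98 ± 0.16 (adjusted p = 0.0233). With the actin ratio as a covariate the fall from Rag1 to BP was -0.39 (adjusted p = 0.0784), and -0.52 when BP was represented by its replicate 2 alone. It was -0.45 (adjusted p = 0.244) with all 9 probe sets of the gene averaged, and the call was lost with no intensity trend (adjusted p = 0.0664) and with only the arrays compared (0.0579). That fall missed the threshold without Rag1 replicate 1, 2 or 3 (adjusted p = 0.0958, 0.0885 and 0.0603) and without BP replicate 3 (0.0622). The rise from BP to B6 passed in 1 of the 9 fits that left out an array, the one without BP replicate 2, and the other adjusted p lay between 0.0510 and 0.141. It was also lost with no intensity trend, with only the arrays compared, in the values as deposited and with all probe sets averaged (adjusted p = 0.0543 to 0.206).

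B2m, the light chain common to all class I molecules, read 6370.1, 5677 and 5512 on the Rag1 arrays, 4054, 6020.2 and 3948 on BP, and 6880.5, 7841 and 6097 on B6. BP replicate 2 lay among the Rag1 arrays, while BP replicates 1 and 3, which had the high actin ratios, lay below them. No change of this probe set passed, with 0.25 ± 0.14 from Rag1 to B6, -0.23 ± 0.14 from Rag1 to BP (adjusted p = 0.412) and 0.48 ± 0.14 from BP to B6 (adjusted p = 0.152). A dimmer B2m probe set passed from BP to B6 (0.91 ± 0.18, adjusted p = 0.0483), a call not followed under alternatives.

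Both transporter genes were higher on every B6 array than on any Rag1 or BP array. Tap1, a chain of the peptide transporter, read 289, 409.8 and 309.8 on the Rag1 arrays, 217, 344 and 302 on BP, and 952, 1345 and 775 on B6. Rag1 and BP overlapped, and the lowest B6 array was well above both. Tap1 rose by 1.60 ± 0.26 from Rag1 to B6 (adjusted p = 0.0209) and by 1.72 ± 0.26 from BP to B6 (adjusted p = 0.0124), and its change from Rag1 to BP was -0.11 ± 0.26 (adjusted p = 0.864). The rise over Rag1 missed the threshold without Rag1 replicate 1 (adjusted p = 0.156) or 3 (0.130) and without B6 replicate 1 (0.124), 2 (0.103) or 3 (0.0505), and the rise over BP without B6 replicate 1 (0.0649) or 2 (0.0776). Averaged with its 3 dim probe sets the rises were 0.59 (adjusted p = 0.512) and 0.56 (0.252).

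Tap2, the transporter's other chain, read 287, 272 and 299 on the Rag1 arrays, 197, 191 and 177 on BP, and 529.8, 773 and 432 on B6. The 3 groups stood in the order BP, Rag1, B6 without overlap. The rise from BP to B6 was 1.47 ± 0.24 (adjusted p = 0.0220), while 1.01 ± 0.24 from Rag1 to B6 (adjusted p = 0.227) and -0.46 ± 0.24 from Rag1 to BP (adjusted p = 0.323) did not pass. The rise over Rag1 passed in 4 of 24 alternatives, 1 of them among the 9 fits that left out an array. The call against BP was lost without Rag1 replicate 1, 2 or 3 (adjusted p = 0.0608, 0.0527 and 0.0510), BP replicate 3 (0.0590) or B6 replicate 1 or 2 (0.0920 and 0.122), and with only the arrays compared (0.143).

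Tapbp, the loading helper that bridges the transporter and the heavy chain, read, on its brighter probe set, 2807, 3367 and 2799 on the Rag1 arrays, 2356, 2538 and 2504 on BP, and 3192, 3273 and 2871 on B6. Rag1 and B6 overlapped, and BP lay below both. The largest of its 3 changes was 0.26 ± 0.13 from BP to B6 (adjusted p = 0.396).

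Of the immunoproteasome subunits, Psmb8 fell in BP and Psmb9 rose in B6, each against Rag1, and Psmb10 passed in no comparison. Psmb8, which takes the place of Psmb5, read 1257, 1223 and 1102 on the Rag1 arrays, 449, 604 and 437 on BP, and 1955, 2794 and 2005 on B6. The groups stood apart in steps, with every BP array below every Rag1 array and every B6 array above. It fell from Rag1 to BP by 1.2 ± 0.18 (adjusted p = 0.00982) and rose from BP to B6 by 2.08 ± 0.18 (adjusted p = 0.000181), and the step from Rag1 to B6 was 0.88 ± 0.18 (adjusted p = 0.0933). With BP replicate 2 alone for BP the difference from Rag1 was -1.19, and with the actin ratio as a covariate it was -1.05 (adjusted p = 0.00916). That fall missed the threshold without Rag1 replicate 1 (adjusted p = 0.0704) or 2 (0.0629), and averaged with its dim probe set it was -0.77 (0.177). The step from Rag1 to B6 passed when the B6 and Rag1 arrays were fitted alone (adjusted p = 0.0136).

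Psmb9, which takes the place of Psmb6 and shares its start region with Tap1, read 692, 666 and 664 on the Rag1 arrays, 502, 504 and 531 on BP, and 1726, 2326 and 1607 on B6. All 3 groups stood apart, with little spread inside Rag1 and BP. It rose by 1.45 ± 0.20 from Rag1 to B6 (adjusted p = 0.00801) and by 1.78 ± 0.20 from BP to B6 (adjusted p = 0.00132), and from Rag1 to BP the change was -0.33 ± 0.20 (adjusted p = 0.384). The rise over Rag1 missed the threshold without Rag1 replicate 1 or 3 (adjusted p = 0.0609 and 0.0531) or B6 replicate 1 or 2 (0.0538 and 0.0527). Psmb8 and Psmb9 passed between BP and B6 with any single array left out, at an adjusted p of at most 0.00173 and 0.0127.

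Psmb10, which takes the place of Psmb7, read 2459, 2265 and 2283 on the Rag1 arrays, 1933, 1629.9 and 1782 on BP, and 2697, 3059 and 2560.2 on B6. The 3 groups did not overlap, but no change passed, the largest being 0.60 ± 0.17 from BP to B6 (adjusted p = 0.138). From Rag1 to BP the change was -0.34 ± 0.17 (adjusted p = 0.287), and -0.71 with BP replicate 2 alone for BP.

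The ratio of each inducible subunit to the constitutive subunit it replaces was then followed array by array. Only its change between groups is read, since probe sets of different genes do not compare in level. The log2 ratio of Psmb9 to Psmb6 was higher by 1.49 ± 0.23 on the B6 arrays than on the Rag1 arrays, that of Psmb8 to Psmb5 by 0.89 ± 0.24 and that of Psmb10 to Psmb7 by 0.53 ± 0.15, and none of the 3 overlapped between these groups. On the BP arrays the Psmb8 to Psmb5 ratio lay below every Rag1 array (-0.84 ± 0.20), while those of Psmb9 to Psmb6 (-0.30 ± 0.23) and Psmb10 to Psmb7 (0.62 ± 0.43) overlapped with Rag1. The exact two-sided permutation test gave p = 0.10 wherever the groups did not overlap, the smallest that 3 against 3 arrays can give (adjusted p = 0.15 over 9 ratios). No ratio could therefore pass.

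The changes of the constitutive partners from Rag1 to B6 were -0.01 for Psmb5, -0.04 for Psmb6 and -0.27 for Psmb7. From Rag1 to BP, Psmb7 fell by 0.96 ± 0.22 (adjusted p = 0.0361), a call kept in 1 of the 9 fits that left out an array, that without BP replicate 2, and lost in the others (0.0516 to 0.169). With the actin ratio as a covariate the change was -0.44 (adjusted p = 0.223). Its intensities were 1244, 817 and 1144 in Rag1, and 373, 859 and 407 in BP replicates 1, 2 and 3. In these deposited intensities BP replicate 2 lay among the Rag1 arrays. The ratio of Psmb10 to Psmb7, taken on normalized values, was 2.26 and 2.04 on BP replicates 1 and 3, which had the high actin ratios. It was 0.94 on BP replicate 2. Psmb10 itself was also lower on BP replicate 2, at 10.45 in normalized log2 units against 11.04 and 10.99 on BP replicates 1 and 3.

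**Figure D3:**
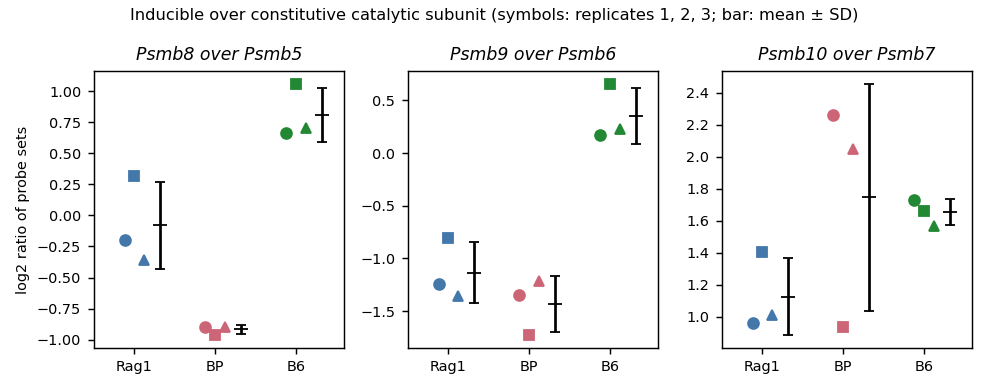
Log2 ratio (vertical axis) of the inducible to the constitutive subunit probe set on each array of the 3 groups. Circles, squares and triangles are replicates 1, 2 and 3 and bars give the mean ± SD. The B6 arrays lie above the Rag1 arrays in all 3 panels, and the BP arrays lie lowest on the left and are split on the right, with replicates 1 and 3 at 2.26 and 2.04 and replicate 2 at 0.94.

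B6 replicate 2, with an actin ratio of 1.76 like those of the Rag1 arrays, was the highest B6 array for all 9 genes in deposited intensity. The matching share of all genes was not counted. B6 replicate 2 was also the brightest array of its group, with a median intensity of 33.07 against 29.39 and 31.13. Its median difference from the Rag1 mean in normalized log2 values was 0.56, against 0.26 and 0.18 on B6 replicates 1 and 3. The same medians on BP replicates 1, 2 and 3 were -0.25, -0.64 and -0.25. In deposited intensity, however, BP replicate 2 was the highest BP array for 5 of the 9 genes and the lowest for 2. The 5 were H2-D1, B2m, Tap1, Tapbp and Psmb8. BP replicate 2 had the lowest actin ratio of its group but was also its brightest array, with a median intensity of 48.02 against 30.18 and 32.35. In normalized log2 values H2-D1 and B2m stayed highest on BP replicate 2, at 11.76 and 12.49. Tap1 was lower there than on BP replicate 3 (8.23 against 8.53). Tapbp was lowest there (11.19 against 11.33 and 11.46), and Psmb8 was level, at 9.02 to 9.03 on the BP arrays. With BP replicate 2 as the only array of its group, 5 of the 9 genes were called lower than in Rag1 (H2-K1, H2-D1, Psmb8, Psmb9 and Psmb10), in a fit that called 15.1% of all genes lower. A part of RNA quality beyond these values was not tested.

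Several genes had more than 1 tested probe set, and these did not always follow each other. From Rag1 to BP, 17 of the 18 tested probe sets had negative changes and 8 were called lower, where 2.7% of all probe sets were. From Rag1 to B6, 17 were positive and 2 were called higher, where 0.259% were, and from BP to B6 all 18 were positive and 11 were called higher, where 0.574% were. The 8 probe sets too dim for the test, for H2-D1, Tap1 and Psmb8, read at most 121.

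For H2-K1, whose 4 probe sets all carry the suffix that Affymetrix gives to sets likely to bind related transcripts, the changes from Rag1 to BP were -0.37, -0.62, -0.84 and 0.27 from the brightest to the dimmest. The middle ones were called lower (adjusted p = 0.0308 and 0.0245), and both calls were lost without any 1 Rag1 array or without BP replicate 3 (0.0717 to 0.139). The first was also lost without B6 replicate 1 (0.0600) or 3 (0.0519), and the other without BP replicate 1 (0.0591). Both were lost with no intensity trend (0.122 and 0.0786) and with only the arrays compared (0.0862 and 0.0709). With the actin ratio as a covariate the first was -0.72 (adjusted p = 0.0178) and the other -0.32 (0.152). The 5 tested H2-D1 probe sets had changes from -1.16 to -0.36. The 3 brightest, at -0.90, -0.86 and -0.91, were called, and all 3 calls were lost without any 1 Rag1 array or without BP replicate 3 and with the actin ratio as a covariate, where the values were -0.39, -0.31 and -0.53 (adjusted p = 0.0784, 0.167 and 0.0696). All 3 were also lost with no intensity trend and with only the arrays compared, and the one at -0.86 without BP replicate 1 (0.0621). The dimmer ones, at -1.16 (adjusted p = 0.0512) and -0.36 (0.791), did not pass. Since class I heavy chain genes are near copies of one another, and 7 of the 9 H2-D1 probe sets carry the same suffix, the signal of H2-K1 and H2-D1 cannot be fully told apart, or from other class I genes. B2m has a dimmer probe set that was called lower in BP (-0.81 ± 0.18, adjusted p = 0.0332) where the brighter one was not, and with the actin ratio as a covariate its change was -0.33 (adjusted p = 0.266). That call was kept without BP replicate 2 or B6 replicate 2 or 3 and lost without any other array (0.0592 to 0.151). It was also lost with no intensity trend (0.103) and with only the arrays compared (0.0567).

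The widest gap was that of Tapbp. Its dimmer probe set read 562, 445 and 424 in Rag1, 18.2, 108 and 30.1 in BP replicates 1, 2 and 3, and 179, 584 and 126 in B6 replicates 1, 2 and 3. It fell by 3.09 ± 0.48 from Rag1 to BP (adjusted p = 0.0115), against -0.18 for the brighter probe set. The fall was -1.70 (adjusted p = 0.0274) with the actin ratio as a covariate, and missed the threshold without Rag1 replicate 1 (0.0748) or 2 (0.0708). The 4 arrays with an actin ratio under 2 read at least 424, the 3 with ratios of 2.43 to 4.17 read 108 to 179, and the remaining 2, with ratios of 14.2 and 20.2, read 18.2 and 30.1. Inside these sets of arrays the reading did not follow the ratio, with 108 at 2.43, 179 at 3.25 and 126 at 4.17. The cause of the gap between the Tapbp probe sets was not tested. Averaged over both probe sets, the change of Tapbp from Rag1 to B6 was -0.38 and not 0.09.

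**Figure D4:**
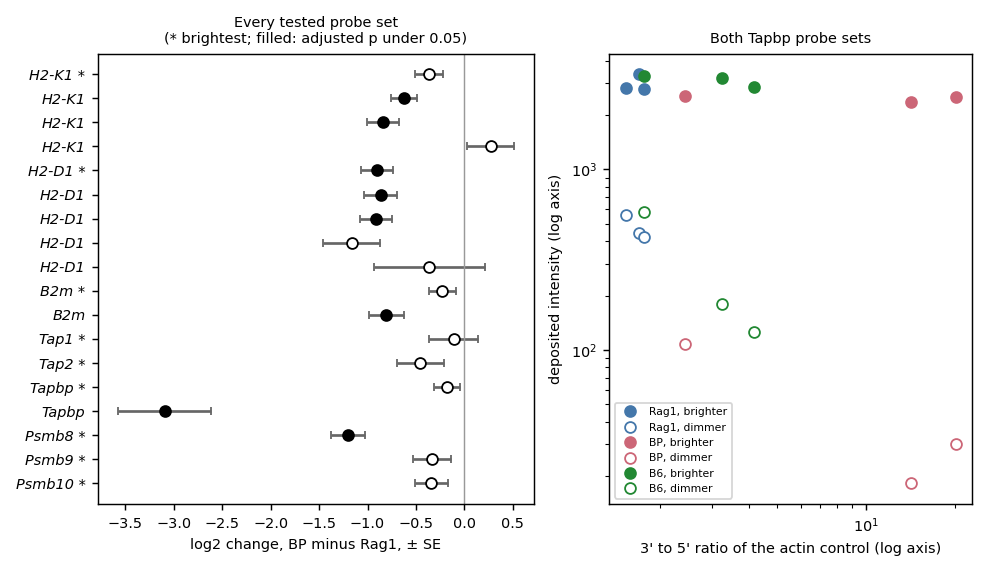
Left, log2 change from Rag1 to BP (horizontal axis, SE bars, n = 3 per group) of the 18 tested probe sets, where an asterisk marks the brightest of a gene and filled points passed an adjusted p of 0.05. Right, deposited intensity of both Tapbp probe sets (log axis) against the 3-prime to 5-prime ratio of the actin control (log axis), 1 point per array and probe set, where the dimmer one lies between 424 and 584 at ratios under 2 and at 18.2 and 30.1 at ratios of 14.2 and 20.2, and the brighter one stays between 2356 and 3367.

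Other genes of the pathway were taken from 6 lists. Over all genes, calls in 1 direction made up at most 2.17% (lower in BP than in Rag1). A list this small without a call is therefore not read as a contrast with the members. Those that encode further class I-like chains gave no call in any comparison among 9 tested of 25 listed. The smallest p from Rag1 to B6 were those of H2-Q10 (0.34 ± 0.21) and H2-M3 (0.38 ± 0.25), both with an adjusted p of 0.999, and the list's median was 0.10. That median was 0.22 from Rag1 to BP, with 5 of 9 positive, where the median of the 9 pathway genes was -0.34. The smallest p from Rag1 to BP were nevertheless those of falls, in H2-T3 (-0.71 ± 0.26, adjusted p = 0.158) and Cd1d1 (-0.59 ± 0.27, adjusted p = 0.255). Among 11 tested peptide trimming and loading genes none passed either. Their median was -0.02 from Rag1 to B6 and -0.43 from Rag1 to BP, the latter with 2 of 11 positive. The smallest p from Rag1 to BP were those of Pdia3, the oxidoreductase of the loading complex (-1.23 ± 0.40, adjusted p = 0.115), and Npepps, a cytosolic aminopeptidase (-1.11 ± 0.39, adjusted p = 0.135). Pdia3 read 342 and 237 on BP replicates 1 and 3 but 1309 on BP replicate 2, among the Rag1 arrays (1048 to 1339). Npepps was instead lowest on BP replicate 2, at 281 against 791 and 675. None of 7 proteasome activator and assembly genes passed, with medians of 0.06 from Rag1 to B6 and 0.11 from Rag1 to BP. Psme1, a subunit of the PA28 activator that interferon induces, had the smallest p from BP to B6 (0.80 ± 0.20, adjusted p = 0.102).

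Among 16 tested regulators of class I genes, single members passed, and the list's medians were 0.23 from Rag1 to B6 and -0.0009 from Rag1 to BP. Irf7, an interferon regulatory factor that interferon itself induces, rose by 0.98 ± 0.15 from Rag1 to B6 (adjusted p = 0.0185) and by 1.03 ± 0.15 from Rag1 to BP (adjusted p = 0.00990). It read 659, 668 and 774 on the Rag1 arrays, 1197, 1635 and 1382 on BP, and 1505, 1388 and 1258 on B6. In BP its direction was thus opposite to that of the 9 pathway genes. The first call was lost without any 1 Rag1 or B6 array (adjusted p = 0.0756 to 0.162), and the other without Rag1 replicate 1 (0.0738) or 2 (0.0629). Irf8, a factor of immune cells that binds interferon elements, fell by 1.12 ± 0.23 from Rag1 to BP (adjusted p = 0.0258) and rose by 1.39 ± 0.23 from BP to B6 (adjusted p = 0.0220). Its fall was lost without any 1 Rag1 array or BP replicate 1 or 3 (adjusted p = 0.0565 to 0.119) and was -0.75 (0.0900) with the actin ratio as a covariate, and its rise was kept only without BP replicate 2 or B6 replicate 1 (otherwise 0.0507 to 0.0793). Nlrc5, the transactivator of class I genes, read 38.5, 37.5 and 24 on the Rag1 arrays, 38.1, 15.2 and 18.7 on BP, and 66.9, 179 and 104 on B6. The B6 arrays were all above the others, and the changes were 1.44 ± 0.35 from Rag1 (adjusted p = 0.233) and 1.75 ± 0.35 from BP (adjusted p = 0.0504). Of the receptors that bind class I molecules on T, natural killer and other immune cells, 3 of 11 listed were bright enough and none passed, with medians of 0.70 and -0.05. Klrd1, a chain of the receptor that reads H2-T23, differed by 0.70 ± 0.31 from Rag1 to B6 (adjusted p = 0.875), and Pirb, an inhibitory class I receptor of myeloid and B cells, by 1.11 ± 0.32 from Rag1 to BP (adjusted p = 0.0784).

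**Figure D5:**
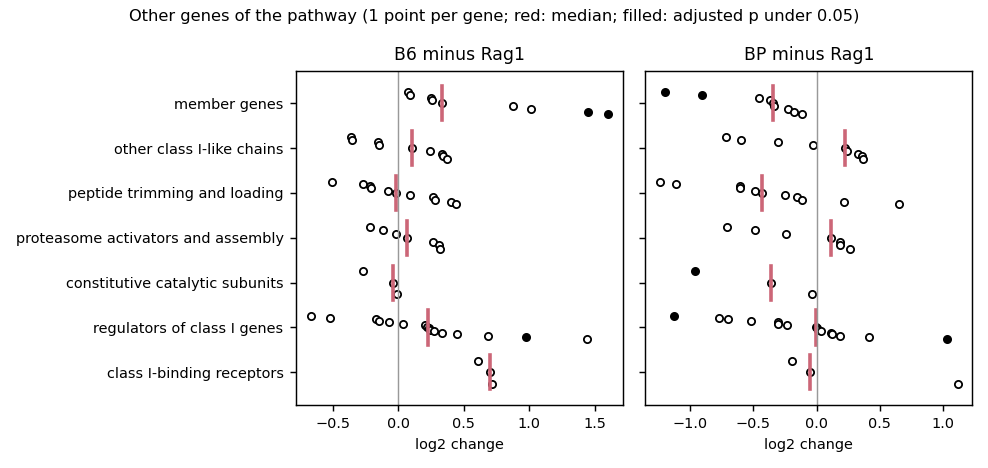
Log2 change (horizontal axis) of each gene of the 9 members and of 6 lists of other pathway genes, from Rag1 to B6 (left) and from Rag1 to BP (right). Each point is a gene, red bars are medians and filled points passed an adjusted p of 0.05. The medians of the members are 0.33 and -0.34, and filled points outside the members are Irf7 on both sides and Psmb7 and Irf8 on the right.

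Markers of other cell types are given for the same arrays as the summed intensity of each list. The 10 measured T cell markers summed to 239 to 316 on the Rag1 arrays, 299.9 to 343 on BP and 888 to 1002 on B6. For 8 cytotoxic and natural killer cell markers the sums were 1015 to 1439, 737 to 1325 and 3317 to 4411, and for 7 B and plasma cell markers 198 to 212, 205 to 285 and 3275 to 9532. The sums of these 3 lists thus stood apart in B6, as H2-K1, Tap1, Tap2, Psmb8, Psmb9 and Psmb10 did. The T cell and cytotoxic sums of BP and Rag1 overlapped. Their median changes from Rag1 to BP, over 6 and 8 tested markers, were 0.09 and -0.31, beside -0.34 for the 9 pathway genes. Of the tested cytotoxic markers, 1 was called lower. The 8 macrophage and dendritic cell markers summed to 7398 to 8532, 7097 to 7647 and 5108 to 7877. For 9 epithelial markers the sums were 53895 to 57349 on the Rag1 arrays, 46692.5 to 50489 on BP and 54760.2 to 58856 on B6, so the BP arrays were lowest there too, and 5 smooth muscle markers gave 8526 to 10790.2, 7418 to 10379 and 8215 to 9799.7. Called lower in BP than in Rag1 were 1 of 9 tested epithelial and 2 of 5 tested smooth muscle markers, where 2.17% of all genes were. The list medians were -0.18 in both. The part of these cell types in the class I and immunoproteasome values was not tested.

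The 5 genes outside the pathway whose normalized values were most like the mean standardized profile of the 9 members over the 9 arrays were Ubd (Pearson r = 0.97), Gpd1 (0.97), Mdh1 (0.97), Ccnd2 (0.96) and Gnpda1 (0.96). These r are descriptions over 9 arrays in 3 groups, chosen as the highest of all genes. Ubd, a ubiquitin-like protein induced by inflammatory cytokines, read 144, 241 and 48.9 on the Rag1 arrays, 20.7, 31.2 and 26.1 on BP, and 314, 624 and 182 on B6. It rose by 3.13 ± 0.49 from BP to B6 (adjusted p = 0.0170), a call lost without BP replicate 1 or 3 or B6 replicate 1 or 2 (0.0521 to 0.0894). Ccnd2, a D-type cyclin, rose there by 0.99 ± 0.15 (adjusted p = 0.0124), which missed the threshold without B6 replicate 1 (0.0653) or 2 (0.0860), and the changes of the remaining 3 from BP to B6 lay between 0.47 and 0.88 and did not pass.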

How the data were processed

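Total RNA (20 µg per array) was turned into biotinylated cRNA, per the labels' protocols. The deposited values were linear intensities per probe set (1 to 21694), and the software and any scaling are not given in the sources used here. After log2(value + 16) the arrays were quantile-normalized. The 64 control probe sets and the lowest 40% by mean (below 5.30 on the log2 scale) were left out. Symbols came from the platform annotation, where 34945 probe sets had 1 symbol, 932 several and 9160 none, and the files name no genome build. All 9 arrays entered 1 limma 3.58.1 fit in R 4.3.3, with 1 mean per group, an intensity trend, 6 residual degrees of freedom and Benjamini-Hochberg adjustment over 27022 probe sets. The fit was tested on simulated data. Array number limits the precision. The members and lists were chosen with earlier results of these data known. Named genes were the members, up to 4 called genes of a list and comparison or else up to 2 with the smallest p, and the 5 most alike, of which some are not printed. Single probe sets of a gene were described after their values were seen. Alternatives covered scaling, pseudocount, filter, samples fitted, replicate block, trend, array weights, actin ratio, probe set averaging and arrays left out.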

Additional observations from a re-analysis of the deposited data

How the results depend on the processing

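Of 648 member gene changes recomputed under alternatives, 557 kept their direction and side of the threshold, 50 lost a call, 32 gained one and 9 reversed. No member reversed under another scaling, though the median of all probe sets from Rag1 to B6 went from -0.01 to -0.12 without scaling. The reversals were all of changes that had not passed: Tap1 from Rag1 to BP with array weights (0.036), with all probe sets of a gene averaged (0.031), without Rag1 replicate 2 (0.087) and without BP replicate 1 (0.0030), in a leave-one-out range of -0.24 to 0.087; B2m from Rag1 to BP with the actin ratio as covariate (0.14) and without BP replicates 1 and 3 (0.0066); Tapbp from Rag1 to B6 with all, or all tested, probe sets averaged (-0.38 in both); and H2-D1 from Rag1 to B6 without B6 replicate 2 (-0.035, in a leave-one-out range to 0.15). The change of the Psmb10 to Psmb7 ratio from BP to B6, -0.09, was 0.16 without BP replicate 1 and 0.058 without BP replicate 3, within a leave-one-out range of -0.49 to 0.16.

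Called members from Rag1 to B6 numbered 2, and 0 to 4 with 1 array left out (0 without Rag1 replicate 1 or 3 or B6 replicate 1 or 2, 1 without B6 replicate 3, 4 without BP replicate 2). They numbered 4 with array weights or with only the arrays compared, and 1 with all probe sets averaged. From Rag1 to BP there were 2, and 0 to 2 with 1 array left out (0 without Rag1 replicate 1 or 2, 1 without Rag1 replicate 3 or BP replicate 3). There was 1 with all probe sets averaged, with no intensity trend, or with only the arrays compared. From BP to B6 there were 5, and 2 to 8 with 1 array left out (2 without B6 replicate 1 or 2, 3 without any 1 Rag1 array or BP replicate 3, 8 without BP replicate 2), and 3 with only the arrays compared.

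Called probe sets from Rag1 to B6 went from 89 to 37 to 354 with 1 array left out, 294 with the actin ratio, 1050 with array weights, 338 with only the arrays compared, 338 without BP replicates 1 and 3 and 19 without B6 replicates 1 and 3. From Rag1 to BP, 1027 became 18 to 5303, 4191, 4023, 183, 5978 and 185 in the same order, and 518 with no intensity trend. From BP to B6, 171 became 56 to 3046, 3488, 856, 51, 5700 and 30, and 499 after median centring, 108 as deposited and 89 with no intensity trend. A lone array was assumed to vary like the other groups. Of 9 pairs of arrays with the same replicate number, 1 had deviations correlated above 0.1, so the numbers were not taken as pairing. A replicate block gave 2, 2 and 5 called members and 74, 799 and 142 called probe sets, changed no member's call, and took the calls of Irf7 from Rag1 to B6 (adjusted p = 0.0606) and Psmb7 from Rag1 to BP (0.0573). The averaging over tested probe sets and the fits without B6 replicates 1 and 3 were chosen after seeing the data.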
